A study of Mus musculus with 6 samples.

Results

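Free DNA ends on the mitochondrial genome were mapped in bins of 50 bases, counted from position 1 and kept apart by strand, in 6 BLISS libraries of sorted mouse forebrain neurons. BLISS repairs and tails the ends of double-strand breaks in fixed cells or nuclei, joins them to adaptors, and copies the neighbouring DNA by in vitro transcription for sequencing. The mouse mitochondrial genome of the mm10 build is 16299 bases long and gives 652 bins over both strands, out of 109021524 such bins in the whole genome. Each aligned read was placed in a bin by its 5′ end, which was taken as the broken end. In all, 11339 reads lay on the mitochondrial genome, and 413 of the 652 bins held at least 1 of them.

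The libraries fall into 3 groups of 2, which the labels call Step2, Step1 and Con without saying what the names stand for. All 6 carry the genotype CK-p25 and 2 weeks of induction by removal of doxycycline from the diet, the Con libraries included. In CK-p25 mice, withdrawing doxycycline switches on p25, which activates the kinase Cdk5, in forebrain neurons through the Camk2a promoter. The labels do not say whether the libraries of a group came from separate animals, so each p-value reflects only how much these libraries differ among themselves, and that variation may be technical. The labelled cell type could not be checked against marker genes, since only genomic DNA was sequenced.

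The mitochondrial genome is a circle that neurons hold in many copies. It encodes subunits of respiratory complexes I, III, IV and V together with the rRNAs and tRNAs needed to translate them, and most of its genes are coded on the same strand. Transcription and replication of the heavy strand start in the control region, where a short displaced strand often forms a loop, and light-strand synthesis starts at a small stem-loop between mt-Tn and mt-Tc. Linear mitochondrial DNA left by double-strand breaks is known to be degraded quickly in mammalian cells.

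The 8 bins with the highest mean share of mitochondrial reads over the 6 libraries are shown first, because most of the bin results below concern them. All 8 were on the minus strand, where reads run towards lower coordinates. They are written 5′ to 3′ on that strand, in the GRCm38 (mm10) sequence of RefSeq. Capitals mark the base before the end and the first base of the read at the most-read position of each bin.
chrM:1801-1850, minus strand, mt-Rnr2: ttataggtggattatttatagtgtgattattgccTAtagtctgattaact
chrM:12001-12050, minus strand, mt-Nd5: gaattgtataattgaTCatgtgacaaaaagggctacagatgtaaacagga
chrM:4901-4950, minus strand, mt-Nd2 and mt-Tw: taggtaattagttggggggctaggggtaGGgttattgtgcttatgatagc
chrM:14901-14950, minus strand, mt-Cytb: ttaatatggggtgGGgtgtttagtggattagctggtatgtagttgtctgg
chrM:13301-13350, minus strand, mt-Nd5: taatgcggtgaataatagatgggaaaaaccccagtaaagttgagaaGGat
chrM:12051-12100, minus strand, mt-Nd5: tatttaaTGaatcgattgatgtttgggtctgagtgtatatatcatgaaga
chrM:13251-13300, minus strand, mt-Nd5: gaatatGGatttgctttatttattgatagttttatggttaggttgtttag
chrM:14801-14850, minus strand, mt-Cytb: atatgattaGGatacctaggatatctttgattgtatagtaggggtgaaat
The light-strand origin, shown because it is the annotated start of light-strand synthesis, held no read in any library.
chrM:5160-5191, plus strand, light-strand origin: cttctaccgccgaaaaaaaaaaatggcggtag

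Mitochondrial reads were scarcer in the Step2 and Step1 libraries than in the Con libraries. Their level, in reads per 1000000 library reads (RPM), was 202 and 285 in Step2 replicates 1 and 2, 340 and 425 in Step1, and 1349 and 2560 in Con. The groups did not overlap, and the Con libraries differed most from each other. Group means in RPM were 243 ± 58.9 in Step2, 382 ± 60.7 in Step1 and 1954 ± 856 in Con (SD, n = 2 each). The Con mean was 8.03 times the Step2 mean and 5.11 times the Step1 mean, and the Step1 mean was 1.57 times the Step2 mean. These are shares of library reads, nearly all of them nuclear. Fewer mitochondrial genomes in a sample, fewer free ends per genome and more nuclear ends therefore cannot be told apart.

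The mitochondrial genome was then fitted as 1 feature beside all windows of 100 kb, with a limma voom model of 25387 features. Like the genome-wide fits below, this model shares its estimate of spread across all features tested, most of them nuclear. Its SE and p-values thus do not measure the spread of the mitochondrial reads alone. Step2 was lower than Con by a log2 fold change of -2.95 ± 0.228 (SE; adjusted p = 7.31e-21). This was the lowest log2 fold change of all 25387 features, against a median of 0.00392, and 0.0512% of features were called lower. Here and below, called means a limma p under 0.05 after Benjamini-Hochberg adjustment over all features of that kind. Step1 was lower than Con by -2.30 ± 0.218 (adjusted p = 7.03e-15), the second lowest of all, with 0.0158% of features called lower. For Step2 against Step1 the log2 fold change was -0.66 ± 0.260 (95% interval -1.17 to -0.15), with an unadjusted p of 0.0129 and an adjusted p of 0.9996, and 0.0236% of features were called lower. The libraries of both groups did not overlap in 36.9%, 36.6% and 34.2% of features in these 3 comparisons, so lack of overlap alone is common. The exact two-sided permutation test gave p = 0.333 for each of the 3 comparisons, the smallest value that 2 libraries against 2 allow.

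**Figure D1:**
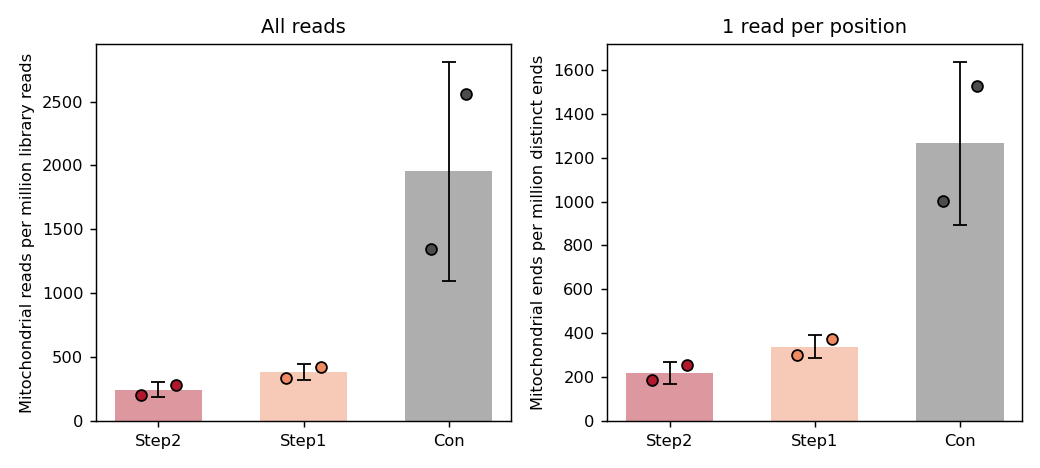
Mitochondrial reads in RPM (left) and distinct mitochondrial ends per 1000000 distinct ends of the library (right) in the Step2, Step1 and Con libraries. Points are libraries, bars are group means and whiskers are 1 SD (n = 2); both Con libraries lie above all Step2 and Step1 libraries in each panel.

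Counting each end once, whatever its number of reads, narrowed the gap. Distinct mitochondrial ends numbered 185 and 254 per 1000000 distinct ends in Step2, 303 and 375 in Step1, and 1003 and 1528 in Con. The Con mean was then 5.78 times the Step2 mean and 3.74 times the Step1 mean. With ends counted once, the limma fit put Step2 below Step1 by -0.63 ± 0.118 on the log2 scale (adjusted p = 0.00119), so that call depends on how repeated ends are counted. Reads per distinct mitochondrial end were 1.36 and 1.42 in Step2, 1.33 and 1.38 in Step1, and 1.74 and 2.38 in Con. This ratio depends on depth, which ran from 308 to 5820 mitochondrial reads per library. At an equal depth of 308 reads the order differed, with 227 and 230 expected distinct ends in Step2, 265 and 266 in Step1, and 278 and 267 in Con. The part of depth in the narrower gap was not tested. On the nuclear chromosomes they were 1.24 to 1.26 in Step2, 1.19 to 1.21 in Step1 and 1.29 to 1.42 in Con.

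Several properties of the libraries moved with the groups, and their part in these differences was not tested. Total depth was 1526487 and 1480461 reads in Step2, 2403238 and 2043098 in Step1, and 2300995 and 2273508 in Con. Median read length was 47 bases in Step2, 48 in Step1 and 49 in Con, for mitochondrial and nuclear reads alike. The read names showed 2 sequencing runs in every library. Within run 1 the Con mean was 8.11 times the Step2 mean and 5.29 times the Step1 mean, and within run 2 it was 7.91 and 4.96 times. Without Con replicate 2, which held the most mitochondrial reads, the limma log2 fold changes were -2.49 for Step2 and -1.84 for Step1 against Con. Without Con replicate 1 they were -3.41 and -2.76.

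Part of the mitochondrial genome cannot be read uniquely in this assembly, because nuclear chromosomes carry copies of it. The longest copy, on chromosome 1 at 24611535 to 24616188, matched mitochondrial positions 6390 to 11042 with 99.936% identity over 4654 aligned bases. Another on chromosome 2 at 22587288 to 22590534 matched positions 4441 to 7699 with 97.362% identity. A copy on chromosome 4 at 80002330 to 80005204 matched positions 12488 to 15359 with 93.009% identity. These 3 copies held 0 to 11 reads per library. Of the 16299 positions on each strand, 10383 start a stretch of 48 bases that occurs only once in the genome. All 191 bins without such a position held no read, while 27 of the 365 bins that are unique throughout held none.

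Ends were spread over most of the readable genome, with large gene-to-gene differences in every library. Per kb of gene, mt-Cytb and mt-Nd5 held the most reads of the protein genes, 15.3% and 14.8% of mitochondrial reads per kb as a mean of the 6 libraries. mt-Cytb encodes the mitochondrial subunit of complex III, cytochrome b, and mt-Nd5 a proton-pumping subunit of complex I. Their order was not settled: mt-Cytb had more RPM per kb in both Step2 libraries and in Con replicate 1, and mt-Nd5 in the other libraries. mt-Nd6 (9.47%) and mt-Nd2 (9.38%), both complex I subunits, came next and also lay close together. The rRNA genes mt-Rnr2 and mt-Rnr1, which encode the large and small ribosomal RNAs, held 7.60% and 5.63% per kb. Lower values belonged to the complex I genes mt-Nd1 (6.45%) and mt-Nd4 (4.91%) and to mt-Co1 (2.40%), the catalytic subunit of complex IV.

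The low values of mt-Nd4 and mt-Co1 come with few readable positions, which were 37.01% and 46.4% of each gene. Per kb of unique sequence mt-Nd4 held 13.3% of mitochondrial reads, close to mt-Nd5 (16.1%) and mt-Cytb (15.3%), and mt-Co1 held 5.17%. In mt-Nd3, a small complex I subunit gene, only 10.9% of positions are unique. No position is unique in mt-Nd4l of complex I, in mt-Co2 and mt-Co3 of complex IV, or in mt-Atp6 and mt-Atp8 of complex V, so their lack of reads says nothing about ends there. Of the 22 tRNA genes, 6 held no read, and 58.5% of the tRNA sequence is unique. The tRNA genes with the most reads per kb were mt-Tl2, mt-Tw, mt-Ts2 and mt-Tr, with 1408, 1328, 949 and 794 reads per kb summed over the 6 libraries.

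**Figure D2:**
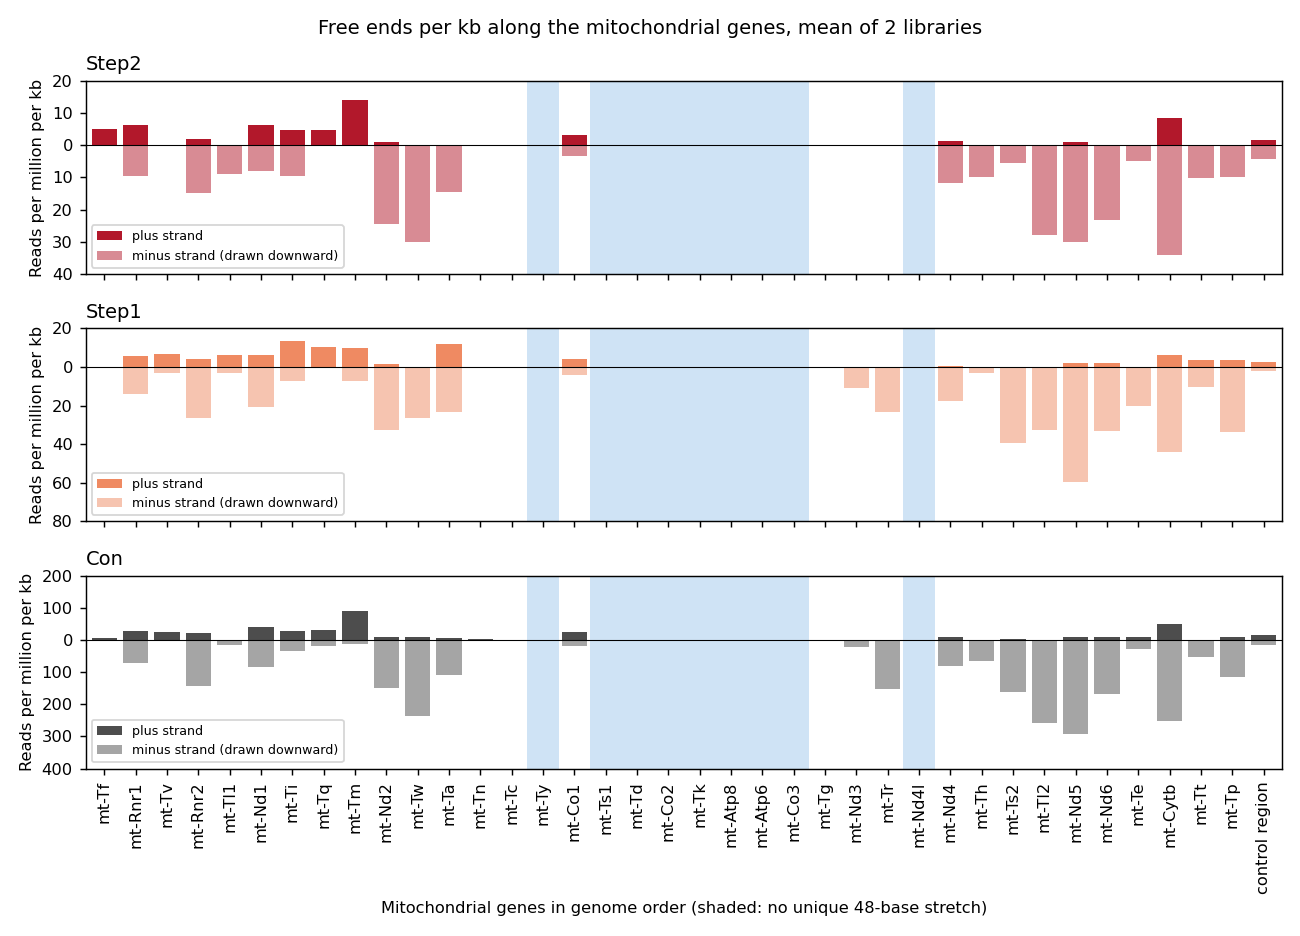
Free ends per kb of each mitochondrial gene, in genome order, in RPM per kb and as the mean of 2 libraries for Step2, Step1 and Con; plus-strand ends point up and minus-strand ends down. The vertical scale differs between panels and reaches several times higher in Con; minus-strand ends dominate from mt-Nd4 to mt-Tp, and shaded genes have no unique stretch of 48 bases.

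By role, the make-up of the mitochondrial reads was alike in the 6 libraries. Complex I genes held 57.1% and 48.3% of mitochondrial reads in Step2, 57.5% and 58.3% in Step1, and 54.9% and 53.8% in Con. The complex III gene mt-Cytb held 17.5% and 21.8% in Step2, 15.9% and 14.2% in Step1, and 17.8% and 17.6% in Con. The rRNA genes held 15.6% and 18.2% in Step2, 17.2% and 17.7% in Step1, and 16.9% and 18.8% in Con. Readable tRNA genes held 4.27% to 5.98% and the readable complex IV gene mt-Co1 3.09% to 4.50% across all 6 libraries. The largest departure was Step2 replicate 2, with the lowest complex I and the highest mt-Cytb share, and it rests on 422 mitochondrial reads.

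**Figure D3:**
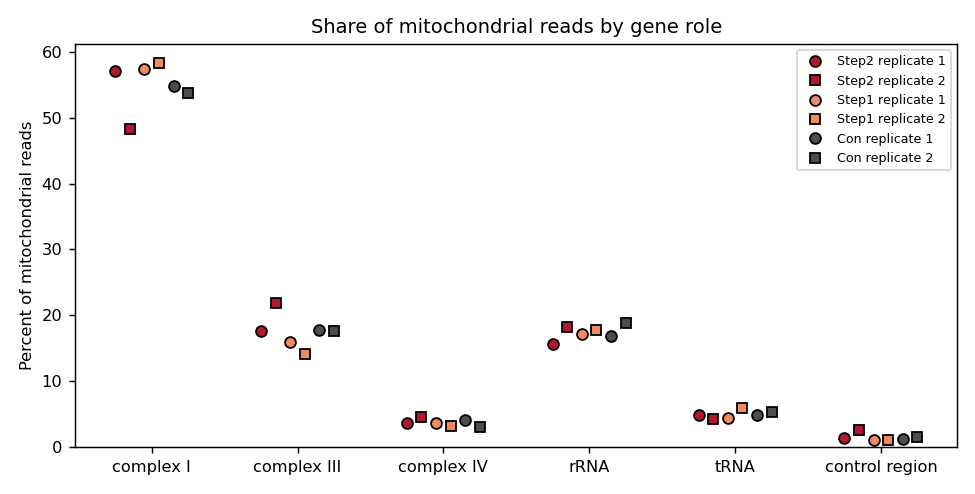
Percent of each library's mitochondrial reads in genes of complex I, complex III, complex IV, the rRNAs, the tRNAs and the control region, for the 2 Step2, 2 Step1 and 2 Con libraries. Complex I ranges from 48.3% to 58.3% and the rRNA genes from 15.6% to 18.8%.

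Read levels of the single genes followed the total. All 27 genes and regions with at least 1 read, with no minimum set, had a lower mean RPM in Step2 than in Con, and all 27 were lower in Step1 than in Con. They share the lower mitochondrial total, and no such count is given for nuclear genes. Only 17 of the 38 features, the control region among them, had at least 10 reads in at least 2 libraries and entered a limma fit of 18113 genes. The tested tRNA genes, mt-Nd3 and the control region passed that filter mostly through the Con libraries, so counts among the 17 are given as description. The other tested features had at least 10 reads in every library. Step2 was called lower than Con for 9 features and Step1 for 10, where 0.199% and 0.188% of all genes were called lower. Their medians were -2.92 and -2.31 on the log2 scale, against -0.03 and -0.04 over all genes tested. The groups did not overlap in 36.6% and 36.7% of all genes. With mitochondrial reads as library size, 9 of the 17 features were lower in Step2 than in Con and 7 in Step1, and none was called. No mitochondrial feature was called between Step2 and Step1, where 2 had an unadjusted p under 0.05, 3.49% of all genes had one, 0.0607% of all genes were called lower, and the libraries of 34.3% did not overlap.

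Among complex I genes, 5 of 7 were called lower in Step2 than in Con and the same number in Step1. mt-Nd5 had 52.4 and 60.8 RPM in Step2, 95.7 and 129 in Step1, and 356 and 747 in Con. Both Con libraries were above all the others, and log2 fold changes against Con were -3.18 ± 0.437 for Step2 (adjusted p = 2.20e-05) and -2.22 ± 0.270 for Step1 (adjusted p = 1.10e-06). mt-Nd2 had 27.5 and 24.99 RPM in Step2, 33.7 and 37.2 in Step1, and 128 and 200 in Con. Its changes against Con were smaller, at -2.59 ± 0.264 for Step2 and -2.17 ± 0.201 for Step1. mt-Nd1, mt-Nd4 and mt-Nd6 were also called, with log2 fold changes of -2.75 to -3.06 for Step2 and -2.16 to -2.27 for Step1.

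mt-Nd3 had no read in either Step2 library, 11 and 6 reads in Step1, and 25 and 11 reads in Con. With a floor of 3 counts over both Step2 libraries, it was at least 7.87-fold lower in Step2 than in Con, with an adjusted p of 0.215 in limma. Without Con replicate 2, which held fewer mt-Nd3 reads than Con replicate 1, the adjusted p was 0.00104. Its Step1 reads were not called against Con (-0.91 ± 0.556, adjusted p = 0.759). Of all 17 features, mt-Nd3 thus had the smallest Step1 change, on counts of 6 to 25 and over a gene that is mostly unreadable.

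The complex III gene mt-Cytb had 35.4 and 62.1 RPM in Step2, 54.1 and 60.2 in Step1, and 240 and 451 in Con. Step2 and Step1 overlapped, and both lay below Con by -2.80 ± 0.325 (adjusted p = 1.29e-06) and -2.53 ± 0.253 (adjusted p = 2.79e-08). mt-Co1 of complex IV had 7.21 and 12.8 RPM in Step2, 12.5 and 13.7 in Step1, and 56.1 and 79.2 in Con. It was called lower than Con in Step2 (-2.75 ± 0.359) and in Step1 (-2.33 ± 0.270). Within sequencing run 1 alone, its Step2 call was lost (adjusted p = 0.196), although the log2 fold change was -2.98.

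Both rRNA genes were called. mt-Rnr2 had 16.4 and 37.2 RPM in Step2, 44.5 and 51.4 in Step1, and 155 and 366 in Con. Its Step2 change was the largest of the called genes, at -3.26 ± 0.468 (adjusted p = 4.71e-05), and its Step1 change was -2.31 ± 0.302. mt-Rnr1 had 15.1 and 14.9 RPM in Step2, 13.7 and 24.0 in Step1, and 72.6 and 115 in Con. Here Step2 and Step1 overlapped, and the changes against Con were -2.58 ± 0.328 for Step2 and -2.35 ± 0.259 for Step1.

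With all reads, 6 of the 22 tRNA genes had enough reads to be tested and none of them was called by limma in any comparison. All 6 passed the read filter only through the Con libraries, which favours lower values against Con, so their changes against Con are a description. Between Step2 and Step1, 0 of 6 had an unadjusted limma p under 0.05, against 3.49% of all genes. mt-Tl2, a leucine tRNA gene, had 4 and 2 reads in Step2, 3 and 7 in Step1, and 25 and 59 in Con. Its log2 fold changes against Con were -2.92 ± 0.980 for Step2 and -2.95 ± 0.757 for Step1 (adjusted p = 0.428 and 0.0977). mt-Tw, for tryptophan, had 2 and 4 reads in Step2, 5 and 3 in Step1, and 20 and 55 in Con. mt-Ts2, a serine tRNA gene, had 1 and 0 reads in Step2, 3 and 7 in Step1, and 19 and 26 in Con. mt-Tr, for arginine, had no read in either Step2 library, 3 and 4 in Step1, and 15 and 32 in Con, so it was at least 10.3-fold lower in Step2 than in Con (adjusted p = 0.112). All 4 genes had more reads in each Con library than in any other library. With ends counted once, mt-Tr was called lower in Step2 than in Con (adjusted p = 0.000506).

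**Figure D4:**
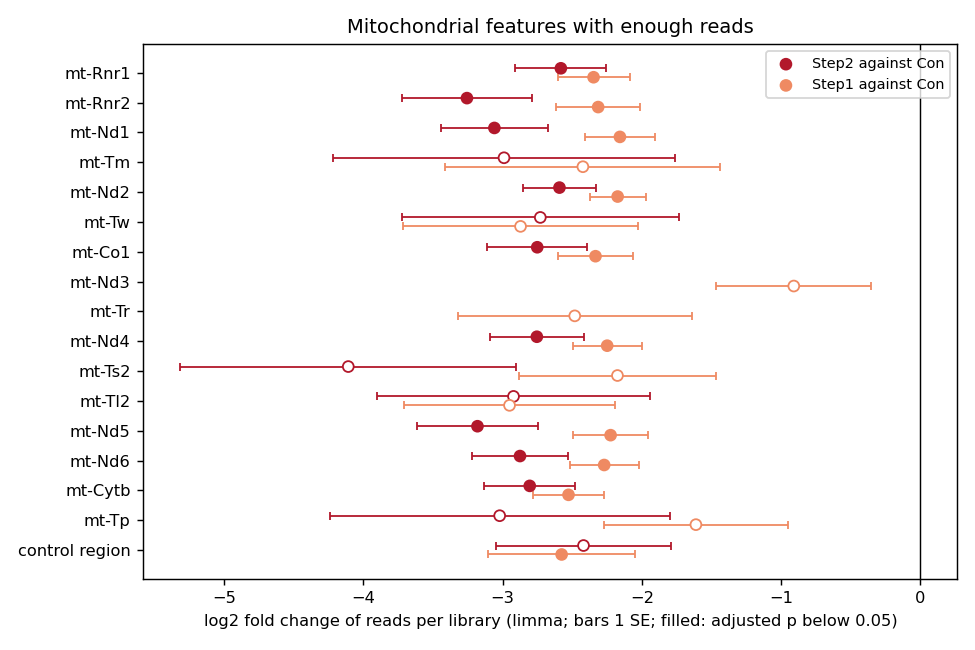
Log2 fold change against Con of the 17 mitochondrial features with at least 10 reads in 2 libraries, from the limma fit of all genes, for Step2 and Step1; bars are 1 SE and filled points have an adjusted p under 0.05. The Step2 points of mt-Nd3 and mt-Tr, which had no Step2 read, are not drawn, and all points drawn lie below 0.

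The control region held few ends for its length. It had 4 and 11 reads in Step2, 9 and 9 in Step1, and 38 and 87 in Con, or 1.30% and 2.61%, 1.10% and 1.04%, and 1.22% and 1.49% of mitochondrial reads. Per kb of unique sequence it held 2.60% of mitochondrial reads, the lowest of the tested features with most of their sequence unique. Relative to library reads it was called lower in Step1 than in Con (-2.58 ± 0.526, adjusted p = 0.0123), but without Step1 replicate 1, Step1 replicate 2 or Con replicate 2 the adjusted p was 0.805, 0.306 and 0.0880. Against Con, Step2 was not called (-2.42 ± 0.629, adjusted p = 0.136), but without Con replicate 1 it was (adjusted p = 0.000408), as it was with ends counted once (adjusted p = 0.000824). As a share of mitochondrial reads it differed by 0.59 percentage points between Step2 and Con and by -0.29 between Step1 and Con (exact two-sided permutation p = 0.667 and 0.333). The difference between Step2 and Con rests on Step2 replicate 2: it was -0.061 points without that library and 1.25 points without Step2 replicate 1. It was also 0.045 points with ends counted once, and -0.33 and 1.45 points within sequencing runs 1 and 2. Without Con replicate 2 the difference between Step1 and Con was -0.15 points.

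Within the control region, most reads lay in the parts next to its 2 borders, where most positions are unique. Cut into 4 parts of near-equal length, its first part (15423 to 15641), next to mt-Tp, held 57 reads over the 6 libraries, 43 of them on the minus strand. The last part (16081 to 16299), next to mt-Tf, held 76 reads, and 58 of these were on the plus strand. The parts between them held 5 and 20 reads, with 16.2% and 51.1% of their positions unique, against 100% and 89.3% in the outer parts. The part of unreadable sequence in this difference was not tested. By library the last part held 0 and 3 reads in Step2, 3 and 8 in Step1, and 19 and 43 in Con. The light-strand origin (5160 to 5191), of which 65.6% is unique, held 0 reads in all 6 libraries. The 100 bases before it held 19 reads and the 100 bases after it held none, with 25% and 37.5% of positions unique, so a lack of ends at the origin could not be told from unreadable sequence.

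Mitochondrial ends lay mostly on the minus strand, which nuclear ends did not. The plus strand held 18.8% and 13.5% of mitochondrial reads in Step2, 11.9% and 11.5% in Step1, and 14.5% and 12.96% in Con. For nuclear reads it held 50.4% to 50.8% in every library. The mitochondrial share was lower in 6 of 6 libraries, by 36.8 ± 2.71 percentage points (SD, n = 6; exact two-sided sign-flip p = 0.0312, the smallest that 6 libraries allow, and 0.0781 after adjustment over 5 such comparisons). Both strands have the same number of unique positions. The 95% Wilson intervals of the plus share were 14.9% to 23.6% and 10.6% to 17.1% in Step2, 9.84% to 14.3% and 9.55% to 13.8% in Step1, and 13.3% to 15.8% and 12.1% to 13.8% in Con. They cover counting error only.

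Between groups the strand shares of all reads were close. The plus share was 16.2% ± 3.76 in Step2, 11.7% ± 0.269 in Step1 and 13.7% ± 1.11 in Con (SD, n = 2 each). It was 4.47 percentage points higher in Step2 than in Step1 and 2.05 points lower in Step1 than in Con, each with an exact permutation p of 0.333, the smallest possible. Without Step2 replicate 1 the difference between Step2 and Step1 was 1.81 points, and without Step2 replicate 2 it was 7.13 points. Without Con replicate 1 the difference between Step1 and Con was -1.26 points. Between Step2 and Con the libraries overlapped. With ends counted once the shares were 23.3% and 17.5% in Step2, 14.7% and 14.4% in Step1, and 20.5% and 22.7% in Con, and Step1 lay 7.01 points below Con. Shares of distinct ends can depend on depth, which was 816 and 869 mitochondrial reads in Step1 and 3104 and 5820 in Con. The part of depth in this difference was not tested.

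The strand balance changed along the genome. Pooled over the libraries, of which Con replicate 2 gave 5820 of the 11339 reads, 3.08% of mt-Nd5 ends and 5.27% of mt-Nd2 ends were on the plus strand. mt-Nd6 is the only protein gene coded on the minus strand, and 4.63% of its ends were on the plus strand, close to its neighbour mt-Nd5. In mt-Rnr1 the plus strand held 29.3% and in mt-Nd1 32.0%. mt-Co1 was the only protein gene with more plus than minus ends, at 55.2%. By library the plus strand held 8 of 11 and 7 of 19 mt-Co1 ends in Step2, 13 of 30 and 15 of 28 in Step1, and 70 of 129 and 106 of 180 in Con. Among tRNA genes, mt-Tm, the methionine tRNA gene between mt-Tq and mt-Nd2, had 34 of 40 ends on the plus strand.

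The leading bins lay in 4 genes, mt-Rnr2, mt-Nd5, mt-Nd2 and mt-Cytb. The bin at 1801 to 1850 in mt-Rnr2 led by both measures. It held 6 and 8 reads in Step2, 49 and 35 in Step1, and 131 and 186 in Con. As a share of mitochondrial reads these were 1.95% and 1.90% in Step2, 6.005% and 4.03% in Step1, and 4.22% and 3.20% in Con. This bin was lowest in Step2 on both scales, and Step1 lay within or above the Con range as a share. It was called lower than Con in Step2 (-3.79 ± 0.546, adjusted p = 0.0119) and in Step1 (-1.85 ± 0.284, adjusted p = 0.0195), and not between Step2 and Step1 (-1.95 ± 0.574, adjusted p = 0.222).

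In mt-Nd5 the bin at 12001 to 12050 held 4.55% and 3.32% of mitochondrial reads in Step2, 1.961% and 3.797% in Step1, and 2.42% and 1.94% in Con. Its next neighbour, at 12051 to 12100, held 1.62% and 0% in Step2, 1.961% and 1.496% in Step1, and 2.35% and 3.23% in Con. The first bin had its highest mean share in Step2, where it overlapped Step1, and its neighbour was highest in both Con libraries. Tested as shares of mitochondrial reads, the second was called lower in Step2 than in Con (-2.59 ± 0.751, adjusted p = 0.0439). The same fit called 1 other bin, at 1851 to 1900 in mt-Rnr2 (-2.52 ± 0.751, adjusted p = 0.0439). That bin held 1 and 0 reads in Step2, 4 and 13 in Step1, and 24 and 139 in Con. It was named after its values were seen. The fit covered 98 mitochondrial bins, of which 45 were lower in Step2 than in Con and 2 were called. Most of these bins were tested because of their Con reads, which favours lower values against Con. Both calls are therefore a description, and whether they hold with a library left out was not tested. The bins at 12101, 13251 and 13301, also in mt-Nd5, each held a mean of 1.62% to 1.81% of mitochondrial reads.

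The bin at 4901 to 4950, at the end of mt-Nd2, held 11 and 9 reads in Step2, 16 and 18 in Step1, and 92 and 149 in Con. It was called lower than Con in Step2 (-2.88 ± 0.526, adjusted p = 0.0284) and in Step1 (-2.72 ± 0.437, adjusted p = 0.0206). In mt-Cytb the bin at 14901 to 14950 held 9 and 13 reads in Step2, 16 and 16 in Step1, and 59 and 193 in Con. The spread between its Con libraries was wide and it was not called (adjusted p = 0.172 for Step2 and 0.105 for Step1). Bins at 14801, 14851 and 14751 in the same gene held means of 1.69%, 1.44% and 1.01% of mitochondrial reads.

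Over the whole genome, 867 bins had at least 10 reads in at least 2 libraries, 98 of them mitochondrial. As with the tRNA genes, mitochondrial bins passed this filter mostly through the Con libraries, which favours lower calls against Con, so their counts are a description. Step2 was called lower than Con in 2 mitochondrial bins and Step1 in 4, where 0.923% and 1.27% of the 867 bins were called lower. The 2 further Step1 bins were at 11501 to 11550, across the border of mt-Nd4 and mt-Th (-2.33 ± 0.468, adjusted p = 0.0428), and at 14351 to 14400 in mt-Cytb (-3.22 ± 0.630, adjusted p = 0.0394). The bin in mt-Cytb held 0 and 1 reads in Step2, 4 and 3 in Step1, and 38 and 38 in Con. These counts are unstable: with 1 library left out in turn they ran from 0 to 15 for Step2 and from 0 to 25 for Step1. They fell to 0 without Step2 replicate 1, Step2 replicate 2 or Step1 replicate 1 for Step2 against Con, and without either Step1 replicate for Step1 against Con. Without Con replicate 1 they were 15 and 25, and without Con replicate 2 they were 4 and 12. Without Step1 replicate 2 the Step2 count was 13, and without either Step2 replicate the Step1 count was 2.

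No mitochondrial bin was called between Step2 and Step1, with 1 at an unadjusted p under 0.05, against 9.34% of all bins at that level and 1.38% called lower. The smallest p of a bin higher in Step2 belonged to 13701 to 13750 in mt-Nd6. It held 8 and 7 reads in Step2, 4 and 1 in Step1, and 23 and 41 in Con, with a log2 fold change of 2.09 ± 1.17 (unadjusted p = 0.110). The next were 12901 in mt-Nd5 and 15251 across mt-Cytb and mt-Tt, at 1.66 ± 1.34 and 0.97 ± 1.03. Next to the bin at 1801, the smallest p of a bin lower in Step2 belonged to 13001 to 13050 in mt-Nd5. It had 0 reads in both Step2 libraries and 8 and 3 in Step1, at least 2.40-fold lower in Step2 with a floor of 3 counts (unadjusted p = 0.0980), followed by 4251 in mt-Nd2 (log2 fold change -2.59). With no minimum, 321 of the 365 fully unique bins had a lower mean in Step2 than in Con, 11 a higher and 33 an equal one. In Step1 against Con, 321 were lower and 15 higher, and in Step2 against Step1, 173 were lower and 91 higher. No such count is given for nuclear bins. Among the bins tested, the median log2 fold change of Step2 against Con was -2.89 for mitochondrial and -0.50 for nuclear bins. For Step1 against Con the medians were -2.36 and -0.39.

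Most single ends were seen in only 1 library, and the libraries differed in depth, from 308 to 5820 mitochondrial reads. Ends with reads in only 1 library numbered 3029, those in 2 libraries 866, in 3 libraries 286, in 4 libraries 78 and in 5 libraries 13. One end, at position 3109 of the plus strand in mt-Nd1, was seen in all 6, with 1 and 2 reads in Step2, 3 and 1 in Step1, and 8 and 3 in Con. The most-read position differed in every library. In Step2 it was 4921 with 7 reads and 14846 with 10, in Step1 1815 with 19 and 12131 with 11, and in Con 11540 with 24 and 11275 with 54, all on the minus strand. The position at 1815 in mt-Rnr2 held 0 and 2 reads in Step2, 19 and 6 in Step1, and 20 and 26 in Con.

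The 10 most-read positions together held 14.9% and 16.4% of mitochondrial reads in Step2, 9.56% and 7.83% in Step1, and 4.74% and 6.53% in Con, on totals that differ in depth. At an equal depth of 308 reads, the expected number of distinct ends was 227 and 230 in Step2, 265 and 266 in Step1, and 278 and 267 in Con. Step2 thus had the fewest different ends, with no overlap with either group and an exact permutation p of 0.333 in each comparison, the smallest possible. Between the libraries of a group, bin shares over the 365 unique bins correlated with Pearson's r = 0.561 in Step2, 0.807 in Step1 and 0.895 in Con. These are correlations across bins, which share libraries and depth, and the Step2 libraries had the fewest reads.

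The first base of the mitochondrial reads was not random with respect to the sequence. On the minus strand, G was the first base at 47.7% and 37.6% of distinct ends in Step2, 52.3% and 48.1% in Step1, and 45.9% and 45.6% in Con, against 24.4% of unique positions. T stood before the end at 46.0% and 45.3% in Step2, 42.1% and 44.4% in Step1, and 46.8% and 49.6% in Con, against 34.9%. Beside the 8 bins printed above, 3 more were among the leading bins with ends counted once, at 12101, 14751 and 14851. Of the most-read positions of these 11 bins, 9 had G as the first base of the read and 8 had GG across the end, a pair found at 6.94% of unique minus-strand positions. These positions were chosen by their reads in the same data, and no GG share of all minus-strand ends is given. The count is therefore a description of these 11 positions.

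Nuclear ends were also richer in these bases than the sequence. On the minus strand of chromosome 19, G was the first base at 31.6% to 36.8% of distinct ends, against 21.5% of its sequence. Relative to sequence, G was enriched 1.956 and 1.54 times on the mitochondrial minus strand in Step2, 2.14 and 1.97 times in Step1, and 1.88 and 1.87 times in Con. On chromosome 19 the enrichment was 1.47 to 1.72 times. The mitochondrial value was higher in 5 of 6 libraries, by 0.295 ± 0.220 (SD, n = 6; exact sign-flip p = 0.0625, adjusted 0.0781). The enrichment of T before the end was lower on the mitochondrial minus strand than on chromosome 19 in 6 of 6 libraries, by 0.204 ± 0.0471 (exact sign-flip p = 0.0312, adjusted 0.0781). On the plus strand the G difference was 0.240 ± 0.201, higher in 5 of 6 libraries, and the T difference was -0.0069 ± 0.157, lower in 3 of 6 (adjusted p = 0.0781 and 0.875). None of the 4 passed 0.05 after adjustment. The sequence baselines were unlike, with unique positions for the mitochondrial genome and every 97th base for chromosome 19. The part of this in the differences was not tested. Across unique bins, Pearson's r of the bin share of distinct ends with GC content ran from -0.0538 to 0.0821 over both strands and all libraries. With the G content of the read's own strand it ran from 0.0754 to 0.216 on the minus strand and from -0.132 to 0.0774 on the plus strand. These are correlations across bins of 1 library each and are given as description.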

How the data were processed

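Per the labels' protocols and the submitters' processing notes, the authors removed PCR duplicates by molecular identifier, used Bowtie2 to align reads to mm10, and used SAMtools and bedtools for conversion. The sources used here name no version of these tools. Each deposited line holds 1 aligned read, and the score that the authors deposited with it is the mapping quality given by their alignment, which ran from 11 to 42. Start and end columns of the deposited files give read positions.

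Reads were counted at their 5′ ends in windows of 100 kb, in bins of 50 bases by strand and in genes (GENCODE vM21 for genes, RefSeq GRCm38 for the control region and light-strand origin). Features of the whole genome with 10 or more reads in 2 or more libraries entered a limma fit (version 3.58.1 under R 4.3.3, voom weights, all 6 libraries, all reads as library size). Its two-sided p-values were adjusted by Benjamini-Hochberg across the windows, the bins or the genes tested. Unique positions start a stretch of 48 bases with no other exact match in the alignments of a BLAST 2.17.0 search (word size 20) that found 73 nuclear copies, 9 of them over 1000 bases. Single shares have 95% Wilson intervals, and expected distinct ends at equal depth were computed from the counts. Counts were made in Python 3.11.15 (pandas 2.3.3, numpy 2.4.6), exact tests in SciPy 1.17.1 and plots in matplotlib 3.10.9. On simulated counts with 4-fold changes in 200 features, the procedure recovered 98.5% of changed windows, 75.5% of bins and 81.5% of genes. False calls numbered 9, 5 and 2. The simulated spread was smaller than that of mitochondrial reads between the Con libraries, so the simulation does not cover such spread.

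Bins were named by rule: the 8 with the highest mean share with all reads and the 8 with ends counted once, the origin, 4 parts of the control region and up to 5 called bins per comparison and direction, or those with the smallest p where none was called. Genes named were the 13 protein genes, both rRNA genes and the 4 tRNA genes with the most reads per kb. mt-Tm, position 3109 and the bin at 1851 were chosen after their values were seen. Members and lists were chosen with earlier results of these data known. Alternatives were ends counted once, a mapping quality of at least 30, other library sizes and scalings, limma-trend, a replicate block, other bins and filters, each sequencing run, and each library left out; a lone library is then assumed to vary like the other groups.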

Additional observations from a re-analysis of the deposited data

How the results depend on the processing

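The mitochondrial total was called lower than Con under all 14 alternatives for Step2 (-3.41 to -2.49 on the log2 scale) and for Step1 (-2.76 to -1.84). Between Step2 and Step1 it ran from -0.906 to -0.409 and was called with ends counted once (-0.63). Replicate numbers did not pair the libraries: deviations of same-numbered libraries correlated with r = 0.0127, 0.0079 and 0.0102 over 25324 windows. With the replicate number as a block the total gave -2.97, -2.32 and -0.65 for Step2 against Con, Step1 against Con and Step2 against Step1. Counts of called bins, 2, 4 and 0 in those comparisons, depended on nearly every choice. For Step2 against Con they were 35 with ends counted once, 1 at a mapping quality of at least 30, 21 and 42 within sequencing runs 1 and 2, 65 with the replicate block and 65 with limma-trend. They were 0 with bins of 100 bases, 0 with bins shifted by 25 bases, 88 with mitochondrial bins alone and 124 with no minimum. For Step1 against Con they were 53 with ends counted once, 20 and 29 within runs 1 and 2, 61 with the block, 16 with limma-trend, 72 with mitochondrial bins alone, 39 with no minimum and 0 with mitochondrial reads as library size. For Step2 against Step1, 1 bin was called with ends counted once, 1 within run 2 and 1 with limma-trend. With 1 library left out they ran from 0 to 15 for Step2 and from 0 to 25 for Step1 against Con. Counts of called genes, 9 and 10 against Con, were 0 and 0 with mitochondrial reads as library size. For Step2 against Step1, 1 gene was called with ends counted once, 1 with the block and 0 to 1 with a library left out. The block also called mt-Tr (adjusted p = 0.0202) and the control region (0.0141) in Step2, and mt-Tw (0.0328) and mt-Tl2 (0.0237) in Step1, against Con. With ends counted once, Step1 minus Con was -7.01 percentage points for the plus-strand share and -0.851 for the control region share. The part of mitochondrial depth in these differences was not tested. Mitochondrial reads as library size remove the shared fall by construction, and some signs then turned. For Step2 against Con the log2 fold changes were 0.38 for mt-Rnr1, 0.31 for mt-Nd2, 0.15 for mt-Tw, 0.29 for mt-Co1, 0.25 for mt-Nd4, 0.10 for mt-Nd6, 0.14 for mt-Cytb, 0.66 for the control region and 0.099 for the bin at 4901. For Step1 against Con they were 0.032 for mt-Rnr1, 0.15 for mt-Nd1, 0.13 for mt-Nd2, 0.015 for mt-Co1, 1.67 for mt-Nd3, 0.076 for mt-Nd4, 0.29 for mt-Ts2, 0.080 for mt-Nd5, 0.068 for mt-Nd6 and 0.43 for the bin at 1801. The causes of the other changes were not tested. Depth was lowest in the Step2 libraries, with 308 and 422 mitochondrial reads, and its part in these counts was not tested.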
